A study of Rattus norvegicus with 102 samples.

Results

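Genes that mark newborn neurons and dividing cells were followed through CA1, CA3 and the dentate gyrus (DG) of the rat hippocampus. They were Dcx, Sox11, Sox4, Igfbpl1, Eomes, Neurod1, Mki67 and Top2a. They were chosen by name and not by a cut on measured values, though with earlier results of these data known. A row with the symbol was present for 7 of these 8 genes among the 26284 genes of the Illumina table, and Sox4 was not analysed here. The libraries came from 34 male Fischer 344 rats, which were 10 young rats of 5 to 6 months and 24 aged rats of 17 to 22 months. From a water maze, which tests memory for the place of a hidden platform, 12 of the aged rats had been classed as unimpaired (AU) and 12 as impaired (AI). No transgene or drug treatment was named in the labels for any group. Each rat gave 1 library per subfield, and poly-A RNA was read by an Illumina instrument and a second time by an Ion Proton, so each table holds 34 libraries of each subfield. Values are the authors' normalised reads (read counts divided by a size factor per library) from the Illumina instrument where no other is stated, and log2 differences are on the log2(value + 1) scale with a standard error (SE).

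The DG is the subfield of the hippocampus in which neurons are known to be added in adult rodents. Dividing progenitors pass through a stage marked by the T-box factor Eomes, then switch on Neurod1, a basic helix-loop-helix factor needed for granule cell differentiation, and Dcx, a microtubule-binding protein of migrating and extending young neurons. Sox11 is a transcription factor of immature neurons, and Igfbpl1 is a secreted protein enriched in them. Mki67 coats chromosomes in dividing cells, and Top2a is the topoisomerase that untangles DNA in mitosis. In a piece of tissue, fewer cells of a type and less RNA per cell cannot be told apart.

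Illumina libraries held 3246922 to 42750899 assigned reads, and Ion Proton libraries 4470473 to 21434160. Fewer genes had reads in 5 Ion Proton libraries, all of aged rats (CA1 of R2232, R2230 and R9874, CA3 of R1931 and R9781; 15057 to 16100), than in any Illumina library (at least 16351), against an Ion Proton median of 18535. That of R1931 CA3 held the highest Ion Proton Dcx (880), Neurod1 (779) and Mki67 (284) of CA3, against 828 of Dcx and 311 of Neurod1 with the Illumina. Without these 5 in the Ion Proton fits, a choice made after the values were seen, no call of a member changed. By markers of CA1 cells, CA3 cells and granule cells, 12 libraries lay in both poly-A tables nearer to another subfield than to their label, which were 7 of CA3, 4 of DG and 1 of CA1. By class they were 7 of AU, 3 of AI and 2 of young rats, and 11 came from rats numbered from 9000 up. Summed dentate granule markers ran from 769 to 10513 normalised reads in libraries labelled DG, with a median of 6555, against medians of 3136 in CA1 and 925 in CA3. The sums of the libraries labelled DG overlapped with those labelled CA1 and with those labelled CA3, where R9875 held 5473. Several results are given with and without the 12 libraries.

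Among the subfields, DG held the highest Neurod1 and Mki67, and CA3 held the highest Dcx. Neurod1 had a lowest, median and highest value of 208, 476 and 632 in DG, 103, 273 and 432 in CA1, and 68.9, 288 and 382 in CA3. The DG value was higher than the CA1 value of the same rat in 30 of 34 rats and higher than the CA3 value in 33 of 34. The log2 difference was -0.73 (SE 0.10) for CA1 minus DG and -0.85 (SE 0.10) for CA3 minus DG, with limma adjusted p-values of 1.1e-09 and 7.06e-12 and Ion Proton differences of -0.77 and -0.72. Between CA1 and CA3 the ranges of Neurod1 lay across each other, with a log2 difference of 0.11 (SE 0.10, limma adjusted p = 0.416).

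Mki67 was likewise highest in DG. In DG it ran from 88.3 to 295 with a median of 198, in CA1 from 53.5 to 199 with a median of 116, and in CA3 from 50.9 to 412 with a median of 114. The 412 belonged to the CA3 library of aged impaired rat R9875, one of the 12 libraries nearer to another subfield, in which the granule cell gene Prox1 stood at 2369 against a CA3 median of 182, and in the Ion Proton table the same library held 99.8. The DG value was the higher one in 28 of 34 rats against CA1 and in 30 of 34 against CA3. The log2 differences were -0.76 (SE 0.11) for CA1 minus DG and -0.67 (SE 0.11) for CA3 minus DG, with limma adjusted p-values of 6.11e-09 and 1.39e-07.

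Top2a, the other gene of dividing cells, was not highest in DG. Its lowest, median and highest values in DG were 2.29, 10.8 and 46.01. They were 5.70, 11.05 and 129 in CA1, and 3.86, 13.2 and 33.97 in CA3, and the groups overlapped almost wholly. The log2 difference of CA1 minus DG was 0.43 (SE 0.18, limma adjusted p = 0.0404) in the Illumina table but 0.09 (SE 0.12, limma adjusted p = 0.616) in the Ion Proton table, so it was not called. Of the 37 cell cycle genes listed, 23 could be tested between subfields. Against CA1, 4 of them were higher and 5 lower in DG. Aurkb, a kinase of the dividing spindle, was the lower one with the largest difference (log2 difference 1.26 for CA1 minus DG). Its means were 55.5 in DG and 66.1 in CA1, and its medians 6.997 and 44.0. Among the higher ones, Ccnd2, a cyclin of the first growth phase, stood at 720 in DG and 340 in CA1, and Mcm4, a subunit of the replication helicase, at 430 and 290. Against CA3, 3 were higher and 6 lower in DG. The share of all genes called in these comparisons was 26.9% and 28.5%. The median log2 difference over the 23 genes was 0.16 for CA1 minus DG and 0.20 for CA3 minus DG, against 0.00 and 0.01 over all genes tested.

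**Figure D1:**
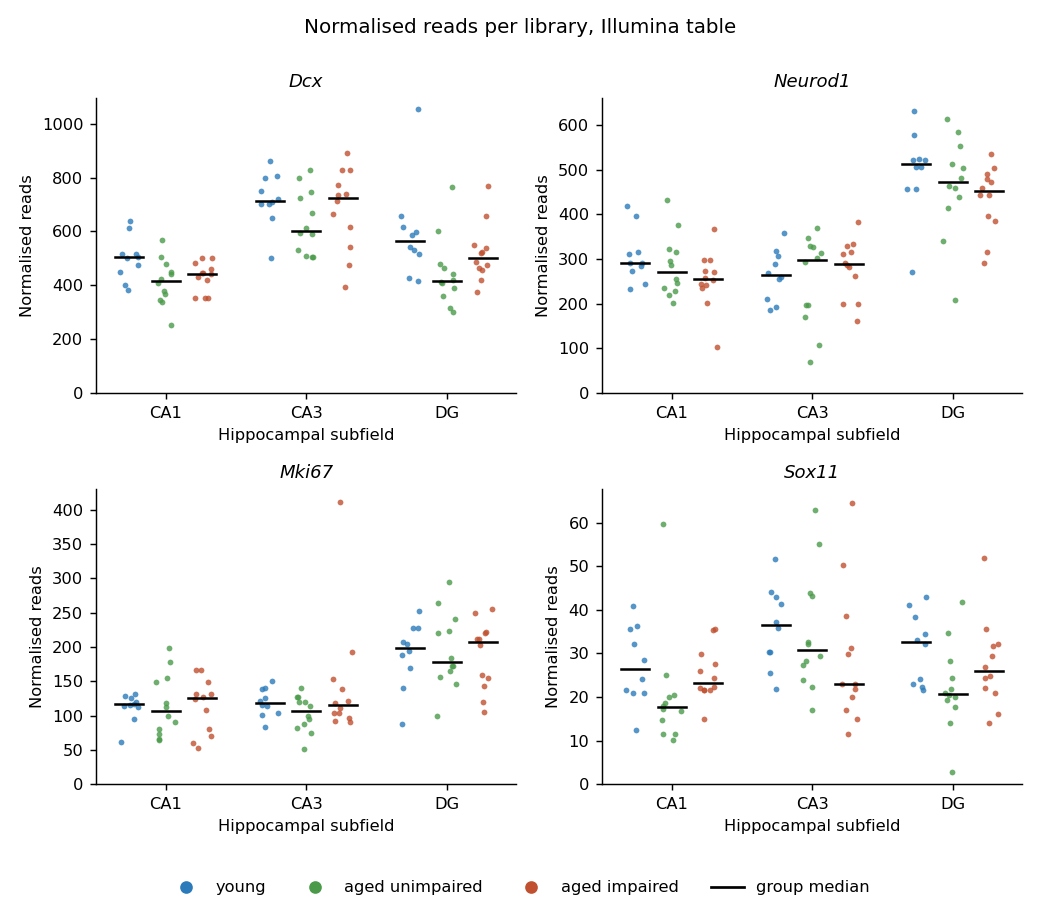
Normalised reads of Dcx, Neurod1, Mki67 and Sox11 in every Illumina library, by subfield (horizontal axis) and class (colour), with a bar at each group median. Neurod1 and Mki67 were highest in DG, Dcx was highest in CA3, and the classes overlapped within every subfield.

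The 250 bases before the start of Mki67 and Top2a are shown because both genes mark division yet differed in their order among the subfields. The sequences are from RefSeq (GRCr8), written 5′ to 3′ on the strand of the gene, and capitals mark CCAAT and TTTGAA on either strand.
Mki67, chr1:199952594-199952843, minus strand: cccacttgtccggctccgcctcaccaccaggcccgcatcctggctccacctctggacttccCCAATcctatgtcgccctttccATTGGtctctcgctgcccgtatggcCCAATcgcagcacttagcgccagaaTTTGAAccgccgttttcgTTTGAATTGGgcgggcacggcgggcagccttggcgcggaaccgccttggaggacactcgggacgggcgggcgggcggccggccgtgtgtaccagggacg
Top2a, chr10:84473094-84473343, minus strand: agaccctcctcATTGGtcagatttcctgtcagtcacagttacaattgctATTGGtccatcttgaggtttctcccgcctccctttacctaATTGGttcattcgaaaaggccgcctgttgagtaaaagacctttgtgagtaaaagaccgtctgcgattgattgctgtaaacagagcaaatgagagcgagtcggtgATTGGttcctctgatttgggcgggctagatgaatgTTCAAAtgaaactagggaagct
CCAAT was found 4 times in each of the 2 sequences, while TTTGAA was found 2 times in Mki67 and 1 time in Top2a. In Mki67 a TTTGAA and a CCAAT on the opposite strand overlap by 1 base. Over 33469 RefSeq windows of the same length, 34% held CCAAT and 16.2% held TTTGAA, so a match is a description of the letters and not of a bound site.

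Dcx was highest in CA3. It ran from 395 to 890 with a median of 705 in CA3, from 302 to 1056 with a median of 481 in DG, and from 253 to 639 with a median of 445 in CA1. CA3 was above CA1 in 33 of 34 rats and above DG in 31 of 34. The log2 difference was -0.60 (SE 0.07, limma adjusted p = 1.32e-10) for CA1 minus CA3 and 0.41 (SE 0.07, limma adjusted p = 1.54e-06) for CA3 minus DG, with Ion Proton values of -0.64 and 0.34. Without the 7 most deeply sequenced rats, CA3 minus DG was 0.36 and no longer passed in both tables. CA1 minus DG was -0.19 (SE 0.07), with limma adjusted p-values of 0.0277 in the Illumina and 0.0504 in the Ion Proton table, and passed in both once a term for each rat was fitted.

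Igfbpl1 was higher in CA1 than in DG. Its lowest, median and highest values in CA1 were 1.43, 16.8 and 197. They were 3.91, 16.3 and 108 for CA3 and 3.08, 9.57 and 161 for DG, and CA1 was the higher in 26 of 34 rats. The log2 difference of 0.88 (SE 0.26, limma adjusted p = 0.00338; Ion Proton 0.94) passed in both tables. It was 0.61 and was no longer called without the 5 libraries that held at least 10000 normalised reads of Ttr, the thyroid hormone carrier made by choroid plexus, a choice made after the values were seen. With a pseudocount of 0.1 it was 0.93 and not called.

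Sox11 ran from 2.77 to 51.9 in DG, from 10.0 to 59.6 in CA1 and from 11.5 to 64.6 in CA3, with medians of 24.4, 21.7 and 30.3. It was lower in CA1 than in CA3 in the Illumina table, by a log2 difference of -0.43 (SE 0.14, limma adjusted p = 0.0116), but the Ion Proton value of -0.22 (SE 0.23) did not pass (limma adjusted p = 0.581; -0.36 and 0.161 without the 5 libraries with few genes). Eomes lay under the mean of 10 that a gene needed for the test in every subfield. Of 34 libraries each, 12 of CA1, 17 of CA3 and 16 of DG had no read, and 4, 3 and 7 had more than 3. With no filter, its log2 differences between subfields lay between -0.01 and 0.21 and none was called.

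In all, of the 6 members tested between subfields, 1 was called between CA1 and CA3 (Dcx), 3 between CA1 and DG (Igfbpl1, Neurod1 and Mki67) and 3 between CA3 and DG (Dcx, Neurod1 and Mki67). A call needed a limma adjusted p under 0.05 with the same direction in both tables. Over all 13907 genes tested the called share was 14.4%, 26.9% and 28.5%, so differing between subfields was common among genes and not particular to the members. With a term for each rat the counts were 1, 4 and 3.

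Of 20 other genes of immature neurons listed, 16 were tested. Prox1, a homeobox factor of granule cells, stood at 1079 in DG, 507 in CA1 and 297 in CA3, and Nhlh1, a helix-loop-helix factor of early neurons, at 313, 131 and 39.3. Both were called in all 3 comparisons. Against CA1, 4 of the 16 genes were higher and 2 lower in DG, and against CA3, 4 were higher and 4 lower. Of 17 stem and progenitor genes tested, 8 were lower in DG than in CA1 and 8 lower than in CA3, against 2 and 0 higher, where 26.9% and 28.5% of all genes were called in either direction. Lpar1, a receptor for lysophosphatidic acid, stood at 1119 in CA1 and 691 in DG, and Vim, an intermediate filament of glia, ependyma and vessels, at 910 and 561. Markers of other cells moved with this. Of 9 oligodendrocyte precursor genes, 7 were lower in DG than in CA1 and 8 lower than in CA3, and their sums were 4562 to 9085 in DG, 5785 to 9441 in CA1 and 5774 to 13089 in CA3. Their part in the differences of the stem and progenitor genes was not tested.

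Within DG, members moved in opposite directions from library to library. Over the 34 DG libraries, after the mean of each class was subtracted from log2(value + 1), Neurod1 rose with the summed dentate granule markers (Pearson r = 0.83, Spearman rho = 0.83) and so did Mki67 (r = 0.83, rho = 0.81). For both r the permutation p was 1e-05, the smallest that 100000 permutations can give, with an adjusted p of 7e-05 over 21 pairs. Without the pair of libraries farthest from the median, r was 0.83 and 0.76, within rats numbered below 9000 it was 0.86 and 0.78, and from 9000 up it was 0.82 and 0.79. Without the 4 DG libraries nearer to another subfield it was 0.91 and 0.87. In the Ion Proton table r was 0.85 for Neurod1 and 0.62 for Mki67, the latter 0.24 in the rats numbered below 9000. Neurod1 and Mki67 also rose together, with r = 0.78 and rho = 0.63 (permutation p = 1e-05 and 6e-05; 0.64 without the 2 farthest libraries; 0.59 and 0.79 within the number series). In the Ion Proton table r was 0.65 and rho 0.56, with r of 0.37 in the rats numbered below 9000 and 0.72 from 9000 up.

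Dcx fell as the granule markers and Neurod1 rose. Its r was -0.70 and its rho -0.77 with the summed granule markers (permutation p = 3e-05 and 1e-05, adjusted p = 0.000126 and 5.25e-05), and -0.73 and -0.79 with Neurod1 (permutation p = 3e-05 and 1e-05). With the granule markers r was -0.62 without the 2 farthest libraries, -0.83 and -0.69 within the number series, and -0.84 without the 4 libraries nearer to another subfield. The Ion Proton value was -0.54, with -0.72 and -0.39 within the number series. With Neurod1, Dcx had r of -0.90 and -0.66 within the number series. The Ion Proton r with Neurod1 was -0.51, with -0.52 and -0.34 within the series. With Mki67, Dcx had r = -0.62 and rho = -0.63 in the Illumina table (permutation p = 0.00016 and 0.00012; -0.56 without the 2 farthest libraries; -0.65 and -0.58 within the number series), but -0.13 and -0.16 in the Ion Proton table (permutation p = 0.463 and 0.364), where r was 0.15 in rats numbered below 9000. Top2a had r = -0.47 and rho = -0.49 with the granule markers (permutation p = 0.0066 and 0.00386), with r of 0.02 in rats numbered below 9000 and -0.38 from 9000 up. In the Ion Proton table r was -0.35, and -0.21 and -0.28 within the series. Mki67 and Top2a, both genes of dividing cells, had r = -0.45 and rho = -0.39 with each other (permutation p = 0.00746 and 0.0243). For this pair r was 0.16 and -0.32 within the number series, and -0.19 in the Ion Proton table (permutation p = 0.284). All values of a library share its dissection, its RNA and its size factor.

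**Figure D2:**
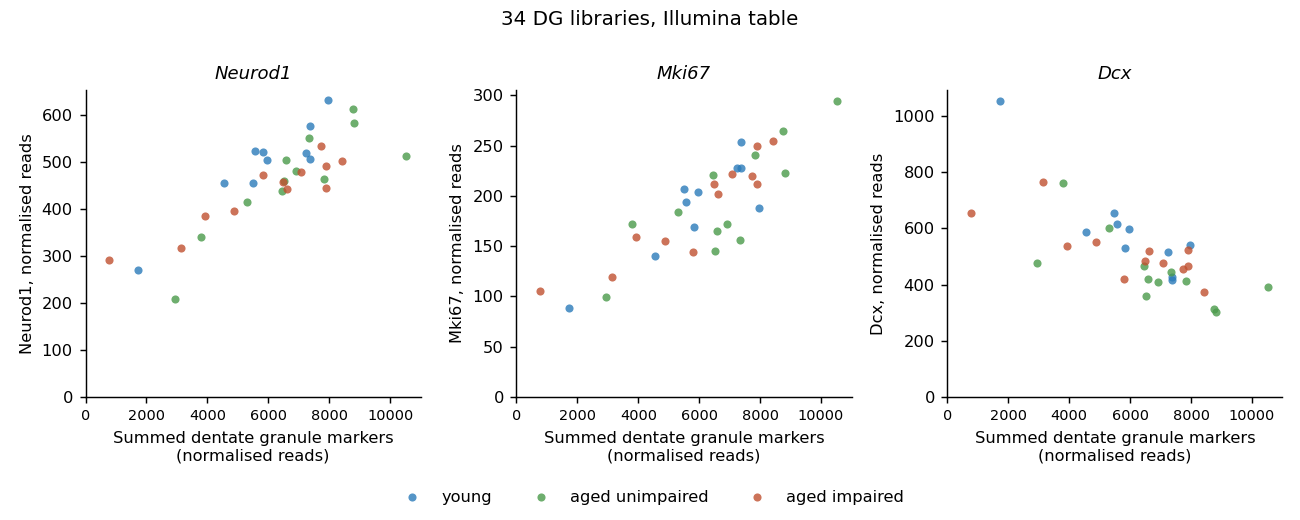
Neurod1, Mki67 and Dcx (vertical axes, normalised reads) against the summed dentate granule markers (horizontal axis, normalised reads) in the 34 DG libraries of the Illumina table, coloured by class. Neurod1 and Mki67 rise from left to right and Dcx falls, from 1056 in the library of young rat R9881, whose marker sum was 1711, to 302 at the lowest.

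The upstream 250 bases of Dcx and Neurod1, the 2 members with the most negative r in the Illumina table, are shown from the same source. In the Ion Proton table the most negative r was that of Igfbpl1 and Neurod1 (-0.53, against -0.51 for Dcx and Neurod1). Capitals mark ACAAAG on either strand, the letters of a SOX element, in Dcx, and CANNTG, the E-box of helix-loop-helix factors, in Neurod1.
Dcx, chrX:112304162-112304411, minus strand: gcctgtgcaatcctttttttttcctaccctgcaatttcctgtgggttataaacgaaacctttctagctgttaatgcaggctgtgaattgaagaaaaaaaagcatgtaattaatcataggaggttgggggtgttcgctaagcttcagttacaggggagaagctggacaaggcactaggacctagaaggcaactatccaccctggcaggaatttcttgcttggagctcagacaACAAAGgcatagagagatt
Neurod1, chr3:84770455-84770704, minus strand: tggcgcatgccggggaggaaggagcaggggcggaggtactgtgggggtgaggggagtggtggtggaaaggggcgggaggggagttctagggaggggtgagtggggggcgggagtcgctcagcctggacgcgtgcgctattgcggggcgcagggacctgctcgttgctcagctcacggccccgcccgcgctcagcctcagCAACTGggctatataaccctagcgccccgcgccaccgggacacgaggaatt
ACAAAG stood once in Dcx and CANNTG once in Neurod1, while the Dcx window held no CANNTG and the Neurod1 window no ACAAAG. Over all windows of this length, 16.3% held ACAAAG and 65.5% held CANNTG.

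The genes most like each member over the DG libraries, ranked by the lower r of the 2 tables among 13728 genes, were as follows. For Neurod1 they were Rbfox1, a neuronal splicing factor, Tle1, a corepressor, Tanc1, Smpdl3b and Bdnf, the neurotrophin known from mossy fibres, with Illumina r of 0.88 to 0.94. For Mki67 they were Dph1, Ovca2, Serinc2, Adsl and Pxdn (0.81 to 0.91), and Dph1 and Ovca2 are known to overlap, so their reads may be shared. None of these 5 is on the cell cycle list. For Dcx they were Parp8, Gnai1, RGD1311744, Arhgap18 and Fchsd2 (0.72 to 0.82). For Igfbpl1 they were Clic4, Prkcd, Evi2a, Lap3 and March8 (0.74 to 0.81), for Sox11 Idh2, Abtb2, Slc25a38, Susd5 and Dfnb31 (0.47 to 0.53), and for Top2a RGD1563986, Sgk2, Dstyk, LOC100362216 and Scarb2 (0.54 to 0.70). These r describe 34 libraries and carry no test.

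Age was compared within each subfield. Dcx was lower in aged than in young rats in CA1, and no other member was called in any subfield. CA1 Dcx was 382 to 639 with a median of 503 in young rats and 253 to 569 with a median of 435 in aged rats. The groups overlapped, but 22 of 24 aged libraries lay below the young median and 8 below the lowest young library. The means were 499 ± 81.1 (SD, n = 10) and 422 ± 69.8 (SD, n = 24). The log2 difference was -0.24 (SE 0.09), with an unadjusted limma p of 0.00995 (adjusted p = 0.504), and -0.41 (SE 0.18) in the Ion Proton table with a one-sided p of 0.0137. A call here needed an unadjusted p under 0.01 in the Illumina table and, for that direction, a one-sided p under 0.05 with the Ion Proton, and 0.851% of 13868 genes in CA1 met it. The call stood at the edge of its threshold. It remained in 10 of 34 fits that left out 1 rat, and it was lost with no filter, with quantile normalisation, with the WT table, without the 7 deep rats, and without the libraries that held at least 20 Ebf3 or at least 10000 Ttr. Within rats numbered below 9000 the difference was -0.21 (p = 0.139) and from 9000 up -0.29 (p = 0.0152), and neither was called.

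In DG, Dcx was 417 to 1056 with a median of 564 in young rats and 302 to 767 with a median of 465 in aged rats, of which 20 of 24 lay below the young median. The log2 difference was -0.29 (SE 0.13, limma p = 0.0262, adjusted p = 0.791) and was not called. Without the libraries nearer to another subfield it was -0.33 (p = 0.00918) and was called, whereas without the DG library of young rat R9881, the highest, it was -0.19 (p = 0.106). Within the number series it was -0.25 (p = 0.117) and -0.32 (p = 0.0978), and in the WT table -0.14 (p = 0.352). In CA3 it was -0.14 (SE 0.10, p = 0.174), with 14 of 24 aged libraries below the young median. The age effect on Dcx did not pass a test of difference between subfields. CA1 minus DG was 0.05 (SE 0.16, unadjusted limma p = 0.762), and 0 members and 0% of 13907 genes were called for any pair of subfields (50 to 274 had an unadjusted limma p under 0.05 in the Illumina table, and 0 had an adjusted p under 0.05 in either).

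Sox11 was lower in the mean of aged rats in each subfield, with 22.8 against 27.3 (CA1), 31.9 against 36.1 (CA3) and 24.8 against 31.3 (DG), and log2 differences of -0.29 (SE 0.20), -0.27 (SE 0.21) and -0.42 (SE 0.23). None passed, and limma p-values were 0.148, 0.214 and 0.0826. In the rats numbered below 9000 the Sox11 differences were -0.45 (CA1), -0.57 (CA3) and -0.78 (DG), and from 9000 up they were -0.09, 0.10 and -0.0038. The difference between the number series was not tested. Igfbpl1 differed by 0.12 (SE 0.49) in CA1 and by -0.25 (SE 0.30) in CA3. Neurod1 differed by -0.21 (SE 0.13) in CA1, -0.06 (SE 0.19) in CA3 and -0.15 (SE 0.12) in DG, and the CA1 value was 0.01 in the Ion Proton table (-0.03 without the 5 libraries with few genes).

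Mki67 was level with age in its means. For CA1 they were 115 in aged and 112 in young rats, for CA3 124 and 119, and for DG 191 and 189.8, with log2 differences of -0.04 (SE 0.18), -0.05 (SE 0.17) and 0.01 (SE 0.15). In DG, 12 of 24 aged libraries lay below the young median and 12 above. Top2a differed in direction between the poly-A tables. Its Illumina differences were -0.47 (SE 0.29), -0.60 (SE 0.22) and -0.39 (SE 0.30) in CA1, CA3 and DG, with 21, 20 and 19 of 24 aged libraries below the young median, while the Ion Proton differences were 0.27 (SE 0.22), 0.07 (SE 0.18) and 0.04 (SE 0.18). In the WT table the Top2a differences were -0.53 (SE 0.29), -0.68 (SE 0.22) and -0.35 (SE 0.26), with 20, 20 and 19 of 24 aged libraries below the young median. In CA3 Top2a was 9.82 to 33.0 in young and 3.86 to 33.97 in aged rats, and the unadjusted Illumina p was 0.0112. Top2a passed the first of the thresholds, but not the second, for AU against young in CA3 (means 10.01 and 17.4, log2 difference -0.77, limma p = 0.00281, Ion Proton -0.03) and for AI against young in CA1 (11.2 and 17.3, -0.70, limma p = 0.00784, Ion Proton 0.33, or 0.20 without the 5 libraries with few genes). A median CA3 library held 11 reads of Top2a in the Illumina table and 40 in the Ion Proton table.

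**Figure D3:**
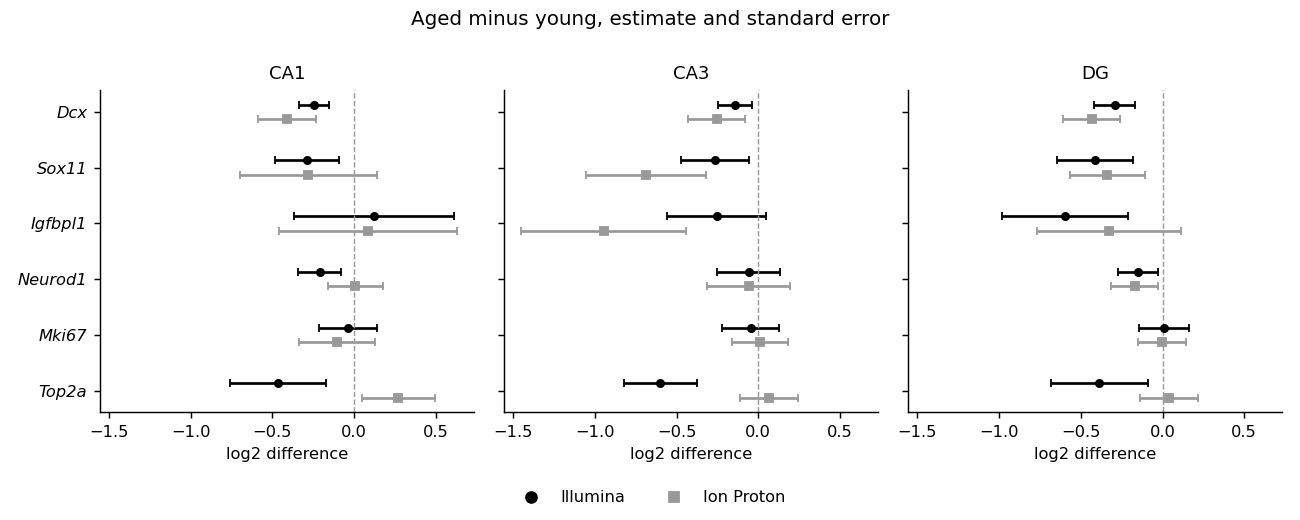
Log2 difference of aged minus young rats (horizontal axis) for the 6 members tested, in CA1, CA3 and DG, with the standard error as bars, for the Illumina (black circles) and Ion Proton (grey squares) tables. Dcx and Sox11 lie left of 0 in each panel and in both tables, Mki67 lies near 0, and Top2a lies left of 0 in the Illumina but not in the Ion Proton table.

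Of the other immature neuron genes, Sema3c, a secreted guidance factor, was the only one called with age. It was 344 in young and 231 in aged rats in CA1 (log2 difference -0.62, limma p = 0.00424) and 713 and 514 in DG (-0.50, p = 0.000672). Of 16 immature neuron genes tested in each subfield, 1 was lower in CA1 and 1 in DG, 0 were lower in CA3 and 0 were higher in any. Of 17 stem and progenitor genes and of 23 or 24 cell cycle genes, 0 were called for aged against young in any subfield with limma. The called share of all genes was 0.402% in CA3 and 1.09% in DG. Median log2 differences over the cell cycle list were 0.02, -0.04 and -0.02, against 0.00, -0.01 and 0.00 over all genes tested. Some glial genes were higher with age. Of 8 microglial genes, 3 in CA1, 1 in CA3 and 5 in DG were called higher in aged rats and 0 lower, beside shares of all genes of 0.851%, 0.402% and 1.09%. Gfap, the filament of astrocytes, was the 1 gene of 6 astrocyte genes called in each subfield, with log2 differences of 0.44, 0.45 and 0.41. Their part in the Dcx values was not tested.

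When the aged classes were taken apart, 0 of 6 members were called in any subfield for AU against young, AI against young or AI against AU, where few of all genes were called either. For AU against young the called share was 0.621% (CA1), 0.394% (CA3) and 0.635% (DG), for AI against young 1.23%, 0.28% and 0.968%, and for AI against AU 0.635%, 0.0216% and 0.124%. In DG, Dcx was 446 ± 127 (SD, n = 12) in AU and 519 ± 106 (SD, n = 12) in AI rats against 594 ± 179 (SD, n = 10) in young rats. AU minus young was -0.41 (SE 0.15, limma p = 0.0103), with an Ion Proton value of -0.51, and passed without the libraries nearer to another subfield (-0.49) and with the number series as a covariate (-0.41). AI minus young was -0.17 (SE 0.13, limma p = 0.192), and AI minus AU was 0.24 (SE 0.12, p = 0.0678). In these DG libraries the summed granule markers had medians of 5898 in young, 6757 in AU and 6544 in AI rats, and their part in the Dcx values was not tested.

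CA1 Sox11 had the lowest p of any member between the aged classes. It was 10.0 to 59.6 with a median of 17.6 in AU rats and 14.8 to 35.5 with a median of 23.3 in AI rats. AI minus AU was 0.42 (SE 0.20, limma p = 0.0478). The highest AU value, 59.6, was that of the CA1 library of rat R9869, one of the 12 libraries nearer to another subfield. Without these libraries AI minus AU was 0.58 (p = 0.00104) and AU minus young was -0.65 (p = 0.0022), and both were called. In DG, AI minus AU in Mki67 was -0.05 (SE 0.16), and in CA3 it was 0.38 (SE 0.20, p = 0.0662), where the library of R9875 with 412 was an AI library. Of the listed genes, Prc1, a spindle protein of the cell cycle list, was called lower in CA1 of AI than of young rats (28.3 and 55.4, log2 difference -0.88, limma p = 0.00564), as was the ependymal gene Ccdc153 (20.4 and 42.5, -0.98), and the part of ependyma in the Prc1 value was not tested. Neurod6, a helix-loop-helix factor of pyramidal neurons, was called lower in CA1 of AI than of AU rats (1984 and 2656, -0.41, limma p = 0.00619). Sema3c was called lower than in young rats in CA1 of AI (-0.77) and in DG of AU (-0.62) and AI rats (-0.38).

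The highest values of Eomes and Igfbpl1 lay in a few libraries. Among the 34 libraries of each subfield, Eomes reached 38.1 in CA1 of young rat R9879, 50.5 in CA3 of young rat R2221 and 47.8 in DG of young rat R9881, against medians of 0.956, 0.414 and 0.7945. The Ion Proton table held 45.1, 49.6 and 26.0 in the same libraries. The aged rats with high values were R9865 in CA3 (43.2, AU) and R9872 and R9869 in CA1 (22.7, AI, and 21.8, AU). Young, AU and AI rats therefore each had at least 1 such library, and each subfield had at least 1.

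Some genes of other cell types were also high in these libraries. Ebf3, a transcription factor of Cajal-Retzius cells, the Reln-secreting neurons of the outermost layer, stood at 62.6, 115 and 57.6 in the libraries of R9879 CA1, R2221 CA3 and R9881 DG, and at 72.0, 39.4 and 48.0 in those of R9865 CA3, R9872 CA1 and R9869 CA1, against medians of 1.24 (CA1), 1.29 (CA3) and 1.16 (DG). Lhx1, with a median of 0 in every subfield, stood at 4.36 to 11.5 in these 6 libraries, and Calb2 at 369 to 825 against medians of 131 to 189. The sum of the whole Cajal-Retzius list ran from 719 to 2600 over all libraries and is led by Reln, which interneurons also make and which stood at 740 to 1181 in the 6 libraries, against medians of 1521, 1403 and 1145. Of the 6 libraries, those of R9865 CA3 and R9869 CA1 were among the 12 nearer to another subfield. A 7th library, CA3 of young rat R9876, had Ebf3 of 22.3 with Eomes of 1.395. Sp8 and Dlx5, genes of interneurons and their precursors, stood at 17.5 to 96.8 and 57.7 to 135 in the 6 libraries, against medians of 8.16 to 11.99 and 35.05 to 54.2. The ependymal gene Ccdc153 stood at 40.6 to 300 in the 6 libraries, against medians of 20.04 to 75.3. Ttr and Kl, a choroid plexus gene, were the highest of their subfield in R2221 CA3 (11823 and 270.1) and in R9881 DG (3440 and 62.5) and stood at 5376 and 158 in R9869 CA1, against Ttr medians of 213 (CA1), 226 (CA3) and 121 (DG) and Kl medians of 4.13 to 8.85. The other 3 libraries held 134 to 577 of Ttr and 10.7 to 23.0 of Kl. The part of these cell types in the Eomes values was not tested.

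**Figure D4:**
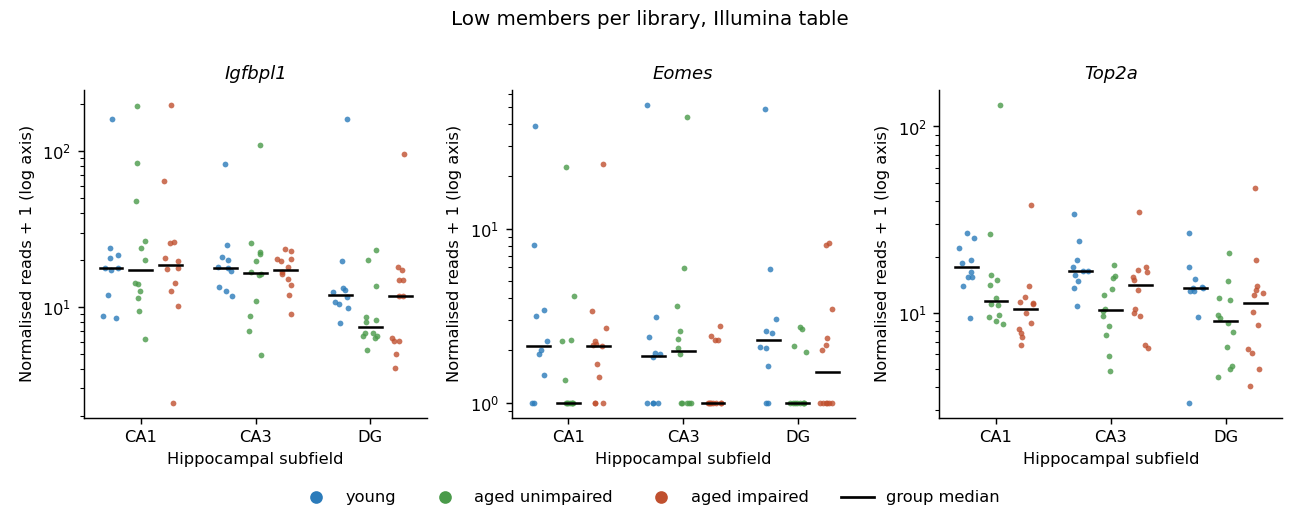
Igfbpl1, Eomes and Top2a in every Illumina library on a log axis (normalised reads + 1), by subfield and class, with group medians. Single libraries stand far above the rest, up to 197 for Igfbpl1, 50.5 for Eomes and 129 for Top2a.

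By permutation (two-sided, 100000 resamples), Eomes did not pass in any of 12 comparisons of classes after adjustment. The lowest p was in DG for AU against young, where the means were 0.452 and 6.06 (difference of mean log2 values -1.12, permutation p = 0.0214, adjusted p = 0.257). A count above 3 reads was reached by 1 of 12 AU, 2 of 12 AI and 4 of 10 young DG libraries. Without the 7 most deeply sequenced rats these were 0 of 10, 2 of 10 and 2 of 7, and the AU library and the 2 young libraries that dropped out had 4 reads each, or 1.52 to 1.64 of Eomes. Without the library of R9881 the young mean was 1.42 and the difference -0.67 (permutation p = 0.0474, adjusted p = 0.461). In the Ion Proton table, with all libraries, the permutation p was 0.0652. Without the 12 libraries nearer to another subfield, none of the 12 comparisons passed after adjustment in either table. DG AU minus young was then -1.14 in the Illumina table (permutation p = 0.0303, adjusted p = 0.248). CA1 AU minus young was -1.10 (permutation p = 0.0437), against -0.76 (permutation p = 0.256) with all libraries. CA3 AU minus young was -0.62, against 0.07. The Ion Proton CA1 AI minus AU was 0.85 (permutation p = 0.0411), against 0.50.

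Igfbpl1 was high in the 6 libraries with high Eomes, at 63.2 to 161, and also in CA1 of R9865 (194, AU) and of R9870 (197, AI), where Eomes was 3.13 and 1.68. It was also 95.6 in DG of R9872 (AI; Ion Proton 84.9), where Eomes was 7.08 and Ttr 284. Among the 34 DG libraries this one ranked 2nd for Ebf3 (5.90), Dlx5 (109), Sp8 (55.4) and Calb2 (296) and 3rd for Ccdc153 (76.7), where the DG medians were 1.16, 35.05, 8.16, 131 and 20.04. For Reln it ranked 31 of 34, at 880 against a DG median of 1145, and Lhx1 stood at 1.18 and Lhx5 at 0. The CA1 libraries of R9865 and R9870 held 118480 and 143336 normalised reads of Ttr, against a CA1 median of 213, and 2969 and 2977 of Kl, against 6.48. The Ion Proton values of Igfbpl1 in these 2 CA1 libraries were 93.3 and 150. The DG mean of Igfbpl1 was 26.0 in young and 12.9 in aged rats, and 11.04 and 9.28 with the highest library of each group left out. The log2 difference of aged minus young over all DG libraries was -0.60 (SE 0.39, limma p = 0.129). The part of Ttr-rich tissue in the Igfbpl1 values was not tested beyond the fit without those libraries.

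**Figure D5:**
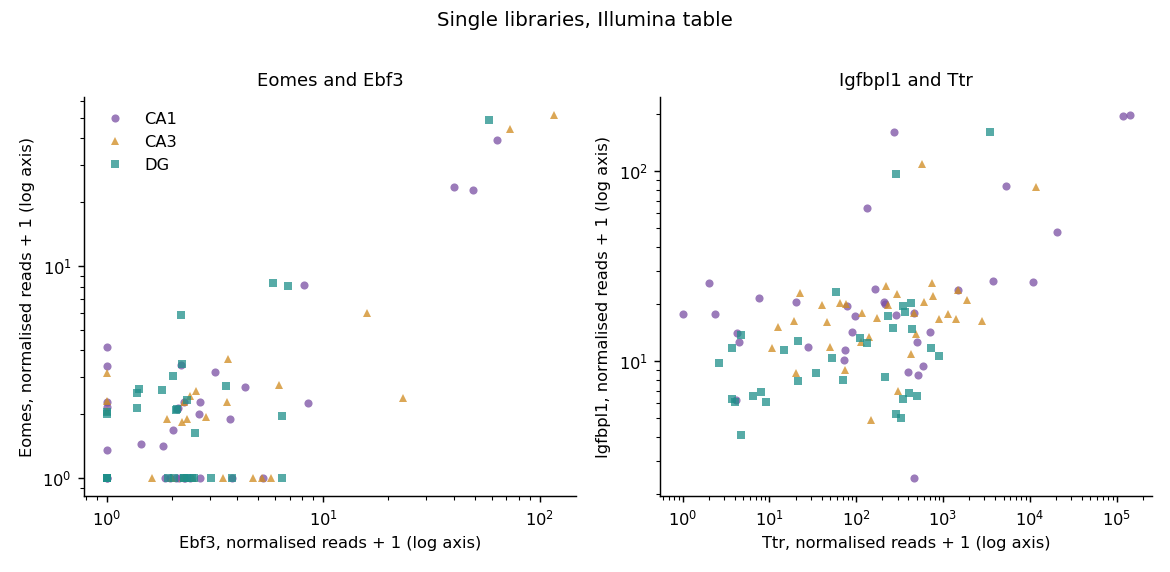
Eomes against Ebf3 and Igfbpl1 against Ttr in all Illumina libraries (both axes log, normalised reads + 1), with subfields as symbols. The 6 libraries with Eomes above 20 all hold Ebf3 above 39, a 7th holds Ebf3 of 22.3 with Eomes of 1.395, and the 2 libraries with the most Igfbpl1 hold the most Ttr.

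The CA1 library of aged unimpaired rat R9869 had 129 of Top2a, against a CA1 median of 11.0, and 122 against 41.2 in the Ion Proton table. There R9874 CA1, one of the libraries with few genes, also had 122, against 12.9 with the Illumina. Other cell cycle genes were high too in the R9869 library in the Illumina table. Cenpf stood at 55.3 against a CA1 median of 9.63, Nusap1 at 36.4 against 9.21, Mcm5 at 46.5 against 12.95 and Mki67 at 177 against 116. In the same library Dlx5, a gene of interneuron precursors, stood at 125 against 43.6 and the summed CA1 pyramidal markers at 2555, the lowest of the CA1 libraries, whose median was 14536. The ependymal genes Ccdc153 and Tmem212 stood at 113 and 79.97, each the highest of the 34 CA1 libraries, against medians of 26.4 and 13.4, and the choroid plexus genes Ttr and Kl at 5376 and 158, against 213 and 6.48. Their part in the Top2a value was not tested.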

How the data were processed

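RNA from CA1, CA3 and DG of 34 rats was measured in 3 tables. The deposited values are a normalised signal, that is, the authors' gene counts divided by a DESeq2 size factor per library. In the study's methods and processing notes, Illumina poly-A reads were trimmed with cutadapt 1.8.3, aligned to rn5 with STAR 2.5 and counted with featureCounts 1.4.4, and Ion Proton poly-A reads were aligned with TopHat2 and Bowtie2. How the WT table was made is not given in the sources used here, and it served only as an alternative. The labels and the methods name different kits, so strand use in counting is unknown and overlapping genes may share reads. Whole reads were recovered for 100.0% of values in each table (tolerance 0.001 reads).

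Genes with a mean of at least 10 were tested with limma 3.58.1 (R 4.3.3, variance trend, Benjamini-Hochberg adjustment) on log2(value + 1), which understates changes of low genes. A single fit to every library of a table served the subfields, and classes were fitted within a subfield. Eomes was tested by permutation (scipy), adjusted over 12 comparisons. The Ion Proton libraries are no new animals, so that a second pass bears on technical error alone. The thresholds for classes are those in the methods. The members and gene lists were chosen with earlier results of these data known. The text names every member, and of a list at most 3 called genes per comparison with the largest change. Values quoted from single libraries for marker and cell cycle genes, and the summed lists, were chosen after the values were seen. The rat number gives the same animal across subfields, and deviations of the same rat had a median r of 0.09 (CA1 and CA3), 0.19 (CA1 and DG) and -0.03 (CA3 and DG). Alternatives were edgeR 4.0.16, DESeq2 1.42.0, other pseudocount, filter and normalisation, left-out libraries and rats, and 3 choices made after seeing the data. Fits were tested on simulated data.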

Additional observations from a re-analysis of the deposited data

Results flagged for a closer look

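In groups of 10 young libraries, a value was singled out when its gap to the next one, as a share of the group's range, exceeded Dixon's 95% critical value. Of 21 groups examined (7 members in 3 subfields), 9 had such a library, while chance gives about 1 in 20 groups when values are normal and groups independent. Here values were untransformed, Eomes was at few reads, and groups share libraries, so that rate is no yardstick for the 9. Groups of 12 were not examined. Of these 9, 4 were in the DG library of rat R9881, which held the highest Dcx (1056, the next being 655), Igfbpl1 (161, next 18.6) and Eomes (47.8, next 4.85) and the lowest Neurod1 (270, next 456). Its Ion Proton values were 617, 141, 26.0 and 189. Its summed dentate granule markers stood at 1711 against a DG median of 6555, and its C1ql2, a granule cell gene, ranked 33 of 34. Its mean standardised score was -0.555 over the granule markers, the lowest but 1 of the DG libraries, 0.777 over the CA3 markers and -1.69 over the CA1 markers. By distance to the mean scores of each subfield it still lay nearest to DG, so it is not among the 12 libraries nearer to another subfield. In CA1 of rat R9879, Igfbpl1 was 161 (next 22.8) and Eomes 38.1 (next 7.11). In CA3 of rat R2221, Igfbpl1 was 81.4 (next 23.9) and Eomes 50.5 (next 2.13). In CA1 of rat R9876, Mki67 was 61.3, under the next lowest of 95.2, and 62.4 in the Ion Proton table.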

How the results depend on the processing

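Of 218 counts of members called under alternatives other than leaving out 1 rat, 199 stayed within 1.5 times of the reported count and 19 moved. For CA1 aged against young the count of 1 (Dcx) became 0 with no filter, quantile normalisation, the WT table, without the deep rats, in rats numbered below 9000 or from 9000 up, and without libraries with at least 20 Ebf3 or 10000 Ttr. Leaving out each rat in turn gave 0 to 1. For CA1 AU against young the count of 0 became 1 with the WT table (Dcx), 2 without libraries nearer to another subfield (Dcx and Sox11) and 1 without Ebf3 libraries (Sox11), and 0 to 2 with a rat left out. The 2 came without R9869, and 1 (Dcx) without R2232 or R9780. For CA1 AI against AU it was 1 (Sox11) without libraries nearer to another subfield and without Ebf3 libraries, and 0 to 1 with a rat left out (R9869). For CA1 AI against young a rat left out gave 0 to 1 (R9780, Dcx). For CA3 AI against young it was 1 (Sox11) in rats numbered below 9000. For DG aged against young it was 1 (Dcx) without libraries nearer to another subfield. For DG AU against young it was 1 (Dcx) without libraries nearer to another subfield, with the number series as covariate and with DESeq2, and 0 to 1 with a rat left out (R2221, R2232, R9780 or R9860). For DG AI against young it was 1 (Neurod1) without Ebf3 libraries, and 0 to 1 with a rat left out (R9881). The cause was not tested. The replicate block, a term for each rat, gave 1, 4 and 3 members in the subfield comparisons, with Dcx added for CA1 against DG, and 0 for the difference of age effects. It changed no other call. Of 717 single values, 659 kept direction and side of the threshold, 11 lost and 16 gained a call, 31 without a call changed sign and 0 called values did. For AU against young, AI against young and AI against AU, only Dcx and Sox11 entered these 717. The number of all genes called with edgeR on the recovered reads was 156 in CA1, 157 in CA3 and 160 in DG for aged against young, against 118, 56 and 150 with limma, and over all alternatives it ran from 83 to 187, 35 to 157 and 88 to 210. Illumina libraries held a median of 0 or 1 read of Eomes and of 7 to 16 reads of Top2a and Igfbpl1 per subfield, and the part of depth in their results was not tested.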

Other observations

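Aurkb and Prc1, kinase and scaffold of the dividing spindle, were the cell cycle genes with the largest difference of CA3 against DG. Aurkb was 204 in CA3 and 55.5 in DG on average (log2 difference 3.31, limma adjusted p = 4.33e-09), with medians of 195 and 6.997, and Prc1 was 101.6 and 40.7 (1.53, limma adjusted p = 4.2e-08). The ependymal gene Tmem212 had medians of 62.6 in CA3 and 2.66 in DG. In the CA3 library of young rat R2221, Aurkb stood at 703, Prc1 at 300 and Tmem212 at 234, each the highest of the 34 CA3 libraries, while Mki67 there was 101, below its CA3 median of 114. This library was chosen after its values were seen, and the part of ependyma in the Aurkb and Prc1 values was not tested.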
